A study of Mus musculus with 6 samples.

Results

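The genes described here are 51 genes of actin dynamics and cell adhesion, taken as a list of symbols from the 23337 genes of a count table of sorted mouse cardiomyocytes (CMs). This list was chosen with earlier results of these data known. Its shares beside those of all genes are therefore descriptions and not an independent test. The list holds non-sarcomeric actin-binding proteins, actin assembly factors, the tropomyosins and focal adhesion proteins, and all 51 were found in the table, Diaph1 under its older symbol Diap1. All 51 had at least 26 counts in every library and passed edgeR's filter on low counts. RNA-seq measured polyA RNA from CMs of wildtype mice that received 5e8 vg per g of an AAV9 vector at P1 and were collected at P14 by collagenase perfusion and sorting for GFP. Both vectors express from the cardiac troponin T promoter (cTNT), which is active in CMs: the SRF-OE group received AAV9-cTNT-SRF-2A-GFP and the GFP group AAV9-cTNT-GFP. The dose transduces a fraction of the CMs in each heart, and only GFP+ cells were collected. The labels list 3 libraries a group. By its headings the table gives counts for SRF-OE replicates 2 and 3 and for GFP replicates 1, 2 and 3, while gene lengths stand under the heading of SRF-OE replicate 1. The heading before it, for chromosomes, stands over gene symbols, so all headings may stand 1 column off. In that reading the counts would be those of 3 SRF-OE and 2 GFP libraries, the column headed GFP1 would be SRF-OE replicate 3, and every other replicate number would be 1 lower. Neither the headings nor the labels settle this, and the libraries are named by their headings throughout. The comparison of 4 libraries that leaves out the column headed GFP1 has the same groups in both readings, whereas the comparison of 5 libraries and all replicate numbers do not.

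Serum response factor (SRF) is a transcription factor that binds a short DNA element, the CArG box, and one of its coactivator families, the MRTFs, is held in the cytoplasm by monomeric actin. When actin polymerizes, MRTF is released and SRF target genes are transcribed, and many of those targets encode actin and the proteins that bind it. The pathway thereby links the state of the cytoskeleton to its own supply of parts. In CMs most actin sits in sarcomeres, while the proteins described here serve the thin filament (Tpm1), the costamere and intercalated disc (Vcl, Tln2, Flnc), and the cortical and stress-fibre-like actin that is prominent in immature and stressed cells.

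Srf, the overexpressed gene (chromosome 17 of GRCm38, 46548329 to 46556175), reached 360 and 748 CPM (read counts scaled to library size) in SRF-OE replicates 2 and 3 and 67.2 and 85.0 CPM in GFP replicates 2 and 3. The library labelled GFP1 held 338 CPM, against its heading. Calls are therefore given for the 5 libraries as labelled and for the 4 libraries that leave it out, and levels in each library, so that every group can be read with and without it. A further library stood apart by its non-myocyte genes. The summed level of 15 endothelial markers came to 1340 CPM for SRF-OE replicate 2 and to 1132 CPM for the library labelled GFP1, but to 552 CPM for SRF-OE replicate 3, beside 551 and 517 CPM in GFP replicates 2 and 3. The 11 fibroblast markers summed to 940, 468, 507, 398 and 338 CPM in the same order of SRF-OE 2, SRF-OE 3, labelled GFP1, GFP 2 and GFP 3, the 9 mural markers to 667, 582, 722, 543 and 561 CPM, and the 12 leukocyte markers to 52.1, 19.8, 43.6, 19.9 and 15.9 CPM. Abcc9 alone gave 323, 260, 357, 393 and 377 CPM of the mural sums in that order, and was highest in GFP replicates 2 and 3. None of the defining endothelial, fibroblast, mural or leukocyte markers was at 0 in all libraries. The 10 CM markers, with Myh6 and Actc1 the most abundant, summed to between 94202 and 107560 CPM in both SRF-OE libraries and the library labelled GFP1, and to 135044 and 155374 CPM in GFP replicates 2 and 3. Fewer cells of a type and less RNA per cell cannot be told apart in such sorted pools. Total counts ran from 14137433 to 23159631 a library. Red cell and platelet markers reached 11.6 CPM at most in sum. Xist and the Y-linked genes marked the animals numbered 2 as female in either group and those of the remaining 3 libraries as male.

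With the 5 libraries as labelled, SRF-OE and GFP CMs were separated at an adjusted p under 0.05 by 0 of the 51 genes in either direction in edgeR's quasi-likelihood test, as by 0% of all 13754 genes tested. The smallest adjusted p of a member was 0.35. At an unadjusted p under 0.05, 6 were higher (Flna, Zyx, Pdlim7, Filip1l, Actn1 and Tpm2), against 6.35% of all genes, and 3 were lower (Pfn2, Pdlim5 and Capzb), against 7.59%. DESeq2 called Flna higher and Pdlim5 lower, but gave an adjusted p to only 23 of the 51, beside 1.02% and 19.7% of the genes to which it gave one. The median log2 fold change over the 51 genes was 0.26, and 38 were positive. Over all 13754 genes tested the median was 0.03, and 7334 were positive.

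Without the library labelled GFP1, 7 members (13.7%) rose in SRF-OE and 0 fell, where 1.98% of all 13397 genes tested rose and 0.97% fell. Those that rose were Fhl1, Pdlim7, Tmsb4x, Gsn, Cfl1, Arpc1b and Tpm3, with adjusted p from 0.042 to 0.0499, so each lies close to the cutoff. Unadjusted, 25 were higher, against 14.4% of all genes, and 4 were lower (Ezr, Pfn2, Pdlim5 and Vcl), against 14%. DESeq2 on the 4 libraries called 18 higher and 2 lower, Ezr and Tpm1, where it called 6.31% and 6.16% of all genes. The median log2 fold change was 0.42, beside 0.04 over all genes. The library labelled GFP1 was not used in this fit, and for each of the 7 genes it lay nearer the SRF-OE mean than the mean of GFP replicates 2 and 3. On a scale from 0 at that GFP mean to 1 at the SRF-OE mean, its position ran from 0.53 for Pdlim7 to 1.27 for Tmsb4x. The position was not computed over all genes tested, so it cannot be called particular to these 7 genes. For a single gene, the smallest p that an exact two-sided permutation test allows is 0.1 with 5 libraries and 0.33 with 4.

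**Figure D1:**
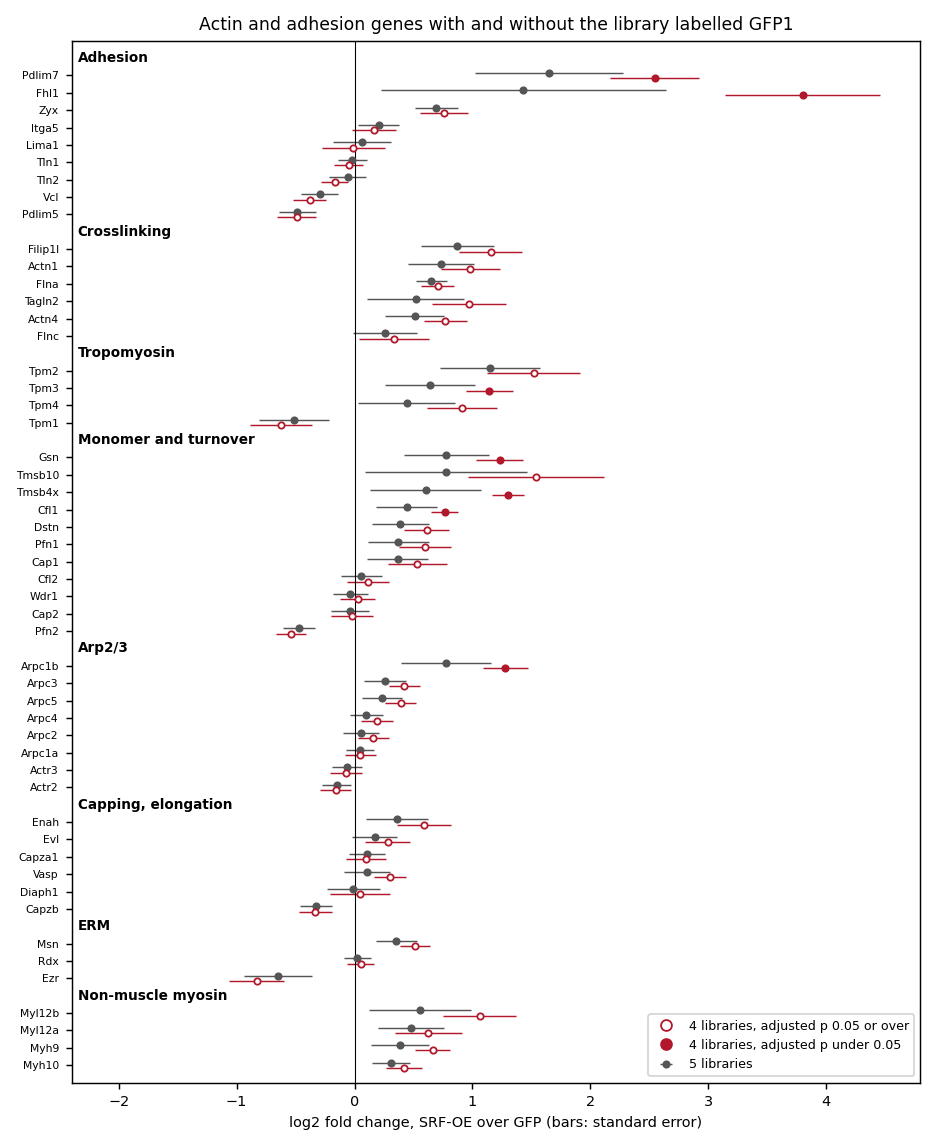
Log2 fold change of SRF-OE over GFP (horizontal axis) for each of the 51 genes, grouped by role, with bars of 1 standard error. Grey points use the 5 libraries as labelled and red points the 4 libraries without the library labelled GFP1, filled for the 7 genes with an adjusted p under 0.05. Fhl1 and Pdlim7 lie farthest to the right at 3.80 and 2.55, and Ezr and Tpm1 farthest to the left at -0.83 and -0.63.

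Levels that did not overlap between the groups were no more frequent among the 51 genes than among all genes when the 5 libraries were taken as labelled. In 5 genes (Flna, Zyx, Pdlim7, Filip1l and Tpm2), or 9.8%, both SRF-OE libraries were above all 3 GFP libraries, against 16.1% of all genes, and in 6 (Tpm1, Vcl, Pdlim5, Capzb, Pfn2 and Actr2), or 11.8%, both were below, against 17.3%. Without the library labelled GFP1, 30 genes (58.8%) lay above, against 30.8% of all genes, and 8 (15.7%) below, against 30.2%. Among libraries of like sex and number, 35 of the 51 genes (68.6%) were higher in SRF-OE than in GFP both for number 2 (females) and for number 3 (males, without the library labelled GFP1), where 37% of all genes were, and 8 (15.7%) were lower in both, where 35% were. The library labelled GFP1 was above both other GFP libraries in 36 of the 51 genes, against 40.5% of all genes.

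The SRF-OE libraries differed in which genes were high. SRF-OE replicate 3, whose endothelial sum was close to those of GFP replicates 2 and 3, was above GFP replicates 2 and 3 in 37 of the 51 genes (72.5%), against 42.6% of all genes. It was at or above SRF-OE replicate 2 in 33 of the 51, against 50.2% of all genes, and at or above it in 0 of 15 endothelial markers. In SRF-OE replicate 3 the 51 genes exceeded the mean of GFP replicates 2 and 3 by a median of 0.39 on the log2 scale. The 11 fibroblast markers exceeded it by a median of 0.45. The 9 mural markers did so by a median of 0.24. The part of other cell types in the members' levels was not tested.

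**Figure D2:**
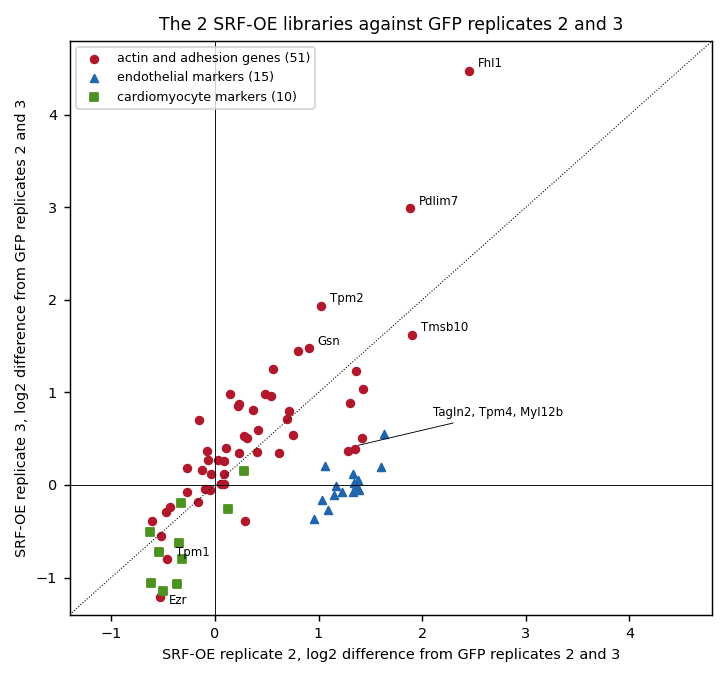
Each point is a gene, placed by its log2 difference in CPM (0.5 added) from the mean of GFP replicates 2 and 3 in SRF-OE replicate 2 (horizontal) and in SRF-OE replicate 3 (vertical), with equality on the dotted line. The 15 endothelial markers (triangles) lie mainly along the horizontal axis, with a median of 1.33 in SRF-OE replicate 2 and -0.01 in SRF-OE replicate 3, while Fhl1, Pdlim7, Tpm2 and Gsn (red circles) lie above the dotted line.

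Among the 9 adhesion and LIM domain genes, Fhl1 and Pdlim7 rose without the library labelled GFP1, 0 fell, and the other 7 did not pass. Fhl1, a muscle LIM protein that binds titin, is at chromosome X of GRCm38, 56731787 to 56793346. It stood at 703 and 2869 CPM in SRF-OE replicates 2 and 3, at 1730 CPM in the library labelled GFP1, and at 119 and 138 CPM in GFP replicates 2 and 3. Both SRF-OE libraries were above GFP replicates 2 and 3 by several times, but they also differed from each other, and the library labelled GFP1 lay between them. The log2 fold change was 1.43 (standard error, SE, 1.21, adjusted p = 0.58) over the 5 libraries and 3.80 (SE 0.66, adjusted p = 0.0499), or 14.0-fold, in the 4-library fit. Over 5 libraries it was 0.073 without SRF-OE replicate 3 and 2.11 without SRF-OE replicate 2. Among females, SRF-OE replicate 2 exceeded GFP replicate 2 by 2.55 on the log2 scale, and among males SRF-OE replicate 3 exceeded GFP replicate 3 by 4.38 and the library labelled GFP1 by 0.73.

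Pdlim7 (chromosome 13 of GRCm38, 55495795 to 55513676) encodes Enigma, a PDZ and LIM domain adaptor of actin filaments. Its levels were 200 and 431 CPM in SRF-OE, 192 CPM in the library labelled GFP1 and 47.1 and 61.6 CPM in GFP replicates 2 and 3. The groups did not overlap even as labelled, with the smallest gap between SRF-OE replicate 2 and the library labelled GFP1. The log2 fold change was 1.65 (SE 0.63, adjusted p = 0.36) and 2.55 (SE 0.38, adjusted p = 0.047) in the 2 fits, and 0.98 over 5 libraries without SRF-OE replicate 3. The same differences were 2.07 among females and 2.80 and 1.16 among males. Pdlim5, the related protein ENH that tethers signalling enzymes to the Z-disc, went the other way, with 503 and 588 CPM in SRF-OE against 750, 703 and 837 CPM in the 3 GFP libraries. Its log2 fold change of -0.48 (SE 0.16, adjusted p = 0.35) hardly moved without the library labelled GFP1, at -0.49. Zyx, the adhesion protein zyxin that is recruited to strained stress fibres, was at 129 and 182 CPM in SRF-OE and at 104, 82.8 and 102 CPM in GFP. Here the library labelled GFP1 lay with the other GFP libraries, and the log2 fold change was 0.69 (SE 0.19, adjusted p = 0.35) and 0.76 without it (adjusted p = 0.081).

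The core adhesion scaffold had small log2 fold changes. Tln1 and Tln2, the talins that couple integrins to actin, were at 196 and 195 CPM and at 142 and 140 CPM in SRF-OE. In GFP replicates 1, 2 and 3 Tln1 was at 188, 190 and 216 CPM and Tln2 at 122, 150 and 167 CPM, and both log2 fold changes were within 1 SE of 0 over the 5 libraries. With 4 libraries they were -0.05 (SE 0.12) for Tln1 and -0.17 (SE 0.12) for Tln2. There Tln2 was lower in SRF-OE without overlap, as were 30.2% of all genes. Vcl, which encodes vinculin, had 230 and 260 CPM in SRF-OE, just under the 264, 296 and 345 CPM of the GFP libraries. Its log2 fold change was -0.30 (SE 0.16) and, with 4 libraries, -0.38 (SE 0.14, adjusted p = 0.15). Transcripts of Ap3m1 share 38.2% of its 50-base stretches. Itga5, the alpha subunit of the fibronectin receptor, ranged from 170 to 242 CPM and Lima1, the actin bundler EPLIN, from 11.3 to 18.4 CPM, both with overlapping groups.

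A CArG box with no mismatch lies in the RefSeq promoter (250 bases before to 50 after a start site, build GRCm38.p6) of 5 of the 49 members that have one in that table, 10.2%, against 1.81% of all 27025 genes with a promoter there. Of the 82 other actin and adhesion genes described at the end, 57 have an entry and 5 of those hold a box (8.77%), but with so many entries missing the check is void for them. The members were chosen with many targets of SRF and MRTF among them. A share above that of all genes therefore follows at least in part from that choice. The CArG consensus is its own reverse complement, so 1 search covers both strands, and no other motif was searched. The 5 genes are Fhl1, Filip1l, Vcl, Lima1 and Arpc4, and 4 of their promoters are printed: those of Filip1l, Vcl and Lima1 because their boxes are identical, and that of Fhl1 because its fold change was the largest. The box is in capitals, 5′ to 3′ on the strand of the gene. Those of Filip1l, Vcl and Lima1 are the same 10 bases, CCTTATAAGG, and begin 62, 227 and 47 bases upstream of the start site, while that of Fhl1 is CCTAAAATGG and begins 102 bases upstream. Fhl1 and Filip1l each have 2 promoters in the table, and 1 of them holds the box.

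Fhl1, chrX:56779433-56779732, plus strand: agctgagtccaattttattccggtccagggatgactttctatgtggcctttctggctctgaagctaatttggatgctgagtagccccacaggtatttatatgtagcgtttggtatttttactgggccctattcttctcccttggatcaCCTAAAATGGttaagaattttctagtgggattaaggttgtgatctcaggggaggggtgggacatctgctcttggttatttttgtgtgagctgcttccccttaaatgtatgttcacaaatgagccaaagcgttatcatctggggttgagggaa
Filip1l, chr16:57548992-57549291, plus strand: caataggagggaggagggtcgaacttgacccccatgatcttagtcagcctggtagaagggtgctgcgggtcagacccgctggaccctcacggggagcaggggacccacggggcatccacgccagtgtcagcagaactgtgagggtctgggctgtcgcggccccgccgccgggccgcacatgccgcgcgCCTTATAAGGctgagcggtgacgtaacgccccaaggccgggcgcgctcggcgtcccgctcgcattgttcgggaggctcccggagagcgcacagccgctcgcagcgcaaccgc
Vcl, chr14:20929148-20929447, plus strand: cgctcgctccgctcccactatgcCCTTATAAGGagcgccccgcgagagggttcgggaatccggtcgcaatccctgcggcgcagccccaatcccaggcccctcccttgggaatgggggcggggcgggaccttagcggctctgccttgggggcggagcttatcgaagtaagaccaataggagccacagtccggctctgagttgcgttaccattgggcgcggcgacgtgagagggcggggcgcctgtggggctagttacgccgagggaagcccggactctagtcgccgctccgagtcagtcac
Lima1, chr15:99820100-99820399, minus strand: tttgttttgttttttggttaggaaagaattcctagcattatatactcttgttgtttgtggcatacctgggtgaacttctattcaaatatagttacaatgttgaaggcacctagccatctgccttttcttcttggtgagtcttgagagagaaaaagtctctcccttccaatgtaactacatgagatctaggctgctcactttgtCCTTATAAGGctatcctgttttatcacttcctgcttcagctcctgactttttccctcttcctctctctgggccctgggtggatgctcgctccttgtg

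Of these 4 genes, Fhl1 was highest in SRF-OE relative to GFP replicates 2 and 3, Filip1l was higher in both SRF-OE libraries than in every GFP library, Vcl was lower in both and Lima1 overlapped. A match is a string of letters and does not show that SRF binds there, and binding was not measured in this experiment.

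All 6 crosslinking and filamin-linked genes had a positive log2 fold change in both fits. Their medians were 0.58 over the 5 libraries and 0.87 without the library labelled GFP1. Of all genes tested, 7334 of 13754 and 7127 of 13397 were positive in the same fits. In edgeR 0 of the 6 passed at an adjusted p under 0.05. Flna, the ubiquitous filamin that crosslinks actin and binds integrins, was at 295 and 300 CPM in SRF-OE and 201, 166 and 201 CPM in GFP. The SRF-OE libraries agreed closely and the library labelled GFP1 lay inside the GFP range. The log2 fold change was 0.65 (SE 0.13, adjusted p = 0.35) with it and 0.70 (SE 0.14, adjusted p = 0.054) without it. Flnc, the muscle filamin of Z-discs and costameres, was at 482 and 872 CPM in SRF-OE and 617, 476 and 603 CPM in GFP, so that the groups overlapped, and its log2 fold change of 0.26 became -0.24 without SRF-OE replicate 3.

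Filip1l, named for its likeness to a filamin A-interacting protein, was at 85.9 and 134 CPM in SRF-OE against 80.6 CPM in the library labelled GFP1 and 40.8 and 58.7 CPM in GFP replicates 2 and 3 (log2 fold change 0.87, SE 0.31, and 1.15, SE 0.27). Actn1 and Actn4 encode the non-muscle alpha-actinins. Actn1 was at 25.2 and 41.0 CPM in SRF-OE, at 25.9 CPM in the library labelled GFP1 and at 16.5 and 17.3 CPM in the other GFP libraries. Actn4, at 8.16 to 10.8 times the RPKM of Actn1, had 255 and 341 CPM against 277 CPM and then 161 and 190 CPM. Tagln2, a calponin-family actin-binding protein, followed another order, with 61.6 CPM in SRF-OE replicate 2 and then 49.6 CPM in the library labelled GFP1 but 31.4 CPM in SRF-OE replicate 3 and 23.4 and 24.2 CPM in GFP replicates 2 and 3. SRF-OE replicate 2 and the library labelled GFP1 were also the highest in the endothelial marker sums above, whose part in these values was not tested.

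**Figure D3:**
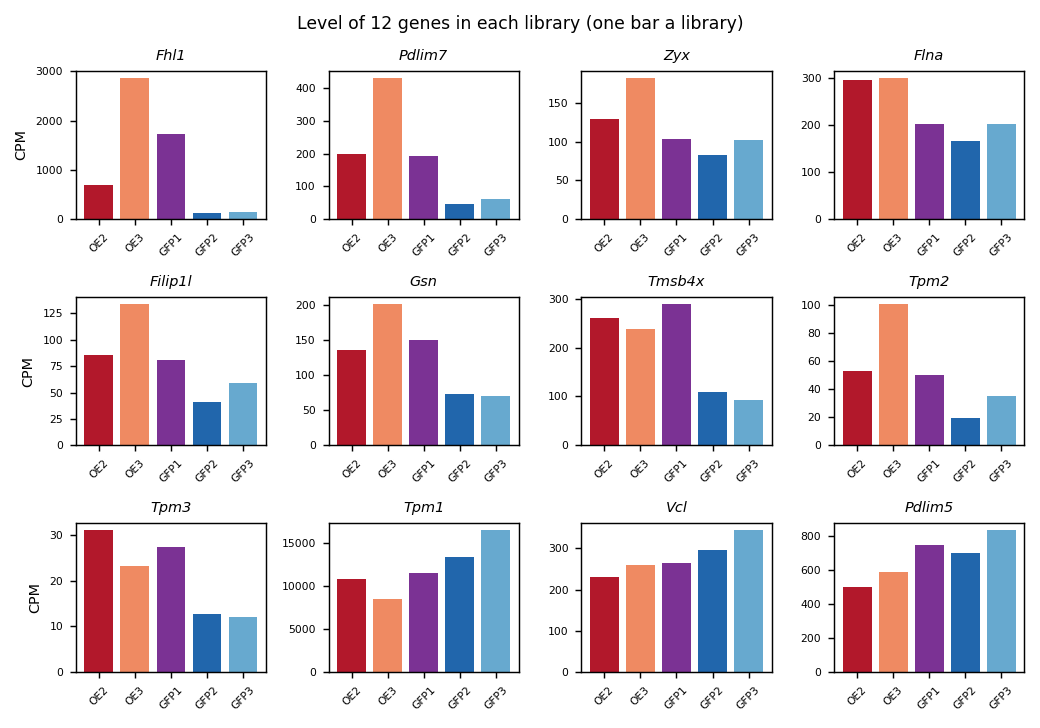
CPM (vertical axis, from 0, scaled for each gene) of 12 genes in the 5 libraries, 1 bar a library: SRF-OE replicates 2 and 3 in red shades, the library labelled GFP1 in purple, GFP replicates 2 and 3 in blue shades. In Fhl1, Pdlim7, Gsn, Tmsb4x and Tpm3 the purple bar stands with the red ones, in Flna and Pdlim5 with the blue ones, and Tpm1, Vcl and Pdlim5 are lower in the SRF-OE bars.

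Of the 4 tropomyosin genes, Tpm3 rose without the library labelled GFP1, 0 fell, and Tpm1 alone had a negative log2 fold change. Tropomyosins lie along actin filaments, and Tpm1 supplies the main striated form of the mouse ventricle, Tpm2 a form abundant in skeletal muscle, and Tpm3 and Tpm4 mainly cytoskeletal forms in the heart. Tpm1 was the most abundant of the 51 genes, with a mean of 3710 RPKM, which is CPM divided by gene length in kilobases, over the 5 libraries. It was at 10803 and 8528 CPM in SRF-OE and at 11537, 13419 and 16533 CPM in the GFP libraries, a log2 fold change of -0.52 (SE 0.30, adjusted p = 0.44) and -0.63 in the 4-library fit (adjusted p = 0.19). The CM marker sums above followed the same order of the 5 libraries, and their part in the value was not tested.

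Tpm2 was at 53.1 and 101 CPM in SRF-OE, at 49.9 CPM in the library labelled GFP1 and at 19.2 and 35.0 CPM in GFP replicates 2 and 3 (log2 fold change 1.15, SE 0.42, and 1.52, SE 0.39, adjusted p = 0.079, with 4 libraries). Tpm3 was at 31.1 and 23.2 CPM in SRF-OE and at 27.4, 12.6 and 12 CPM in GFP, and rose without the library labelled GFP1 with a log2 fold change of 1.14 (SE 0.20, adjusted p = 0.0499). Tpm4 was at 114 and 60.3 CPM in SRF-OE and at 99.5, 45.6 and 47.6 CPM in GFP, again with SRF-OE replicate 2 and the library labelled GFP1 highest, as for the endothelial markers. The counts are per gene, so the striated and cytoskeletal transcripts of Tpm1 cannot be told apart. Of the 50-base stretches of Tpm3 transcripts, 40% also occur in transcripts of Tpm3-rs7, so its level is uncertain.

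Of the 11 genes of the actin monomer and filament turnover cycle, Tmsb4x, Gsn and Cfl1 rose without the library labelled GFP1 and 0 fell. Tmsb4x (chromosome X of GRCm38, 167207093 to 167209315) encodes thymosin beta-4, which sequesters actin monomers. Its levels were 260 and 238 CPM in SRF-OE, 289 CPM in the library labelled GFP1 and 110 and 92.8 CPM in GFP replicates 2 and 3. The library labelled GFP1 was the highest of all 5, and the log2 fold change went from 0.60 (SE 0.47, adjusted p = 0.55) to 1.30 (SE 0.14, adjusted p = 0.042) without it. The paralog Tmsb10 was scarcer, at 17.5 and 14.4 CPM in SRF-OE, 16.9 CPM in the library labelled GFP1 and 8.62 and 2.05 CPM in GFP replicates 2 and 3, the last of these from 26 counts (log2 fold change 0.78, SE 0.69, and 1.54, SE 0.58, with 4 libraries). Transcripts of other genes share 27% of its 50-base stretches and 20.7% of those of Cfl1.

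Gsn (chromosome 2 of GRCm38, 35256380 to 35307892) encodes gelsolin, which severs and caps filaments. It was at 135 and 202 CPM in SRF-OE, 151 CPM in the library labelled GFP1 and 73.2 and 71.1 CPM in GFP replicates 2 and 3 (log2 fold change 0.78, SE 0.36, and 1.23, SE 0.20, adjusted p = 0.048, with 4 libraries). Gelsolin is also abundant in cardiac fibroblasts, whose marker sum was 468 CPM for SRF-OE replicate 3, the library with the most Gsn, and 940 CPM for SRF-OE replicate 2, and the part of these cells in the Gsn values was not tested. Cfl1, the non-muscle cofilin that depolymerizes filaments, was at 144 and 152 CPM in SRF-OE, 151 CPM in the library labelled GFP1 and 89.3 and 85.9 CPM in the other GFP libraries, with a log2 fold change of 0.44 (SE 0.26) and 0.76 (SE 0.11, adjusted p = 0.047) in the 4-library fit. Its muscle paralog Cfl2, more abundant at a mean of 193 against 105 RPKM, was at 513 and 650 CPM in SRF-OE and 596, 593 and 487 CPM in GFP and overlapped.

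Profilins load monomers for filament growth. Pfn1, the broadly expressed one, was at 242 and 379 CPM in SRF-OE, at 307 CPM in the library labelled GFP1 and at 206 CPM in both other GFP libraries. Pfn2 had 54.5 and 53.0 CPM in SRF-OE and 66.5, 82.5 and 73.9 CPM in GFP, lower in SRF-OE without overlap (log2 fold change -0.47, SE 0.14, adjusted p = 0.35, and -0.54, adjusted p = 0.068, with 4 libraries). Cap1 and Cap2 encode cyclase-associated proteins that recycle cofilin-bound monomers, and Cap2 is the muscle form. Cap1 was at 7.56 and 6.20 CPM in SRF-OE and 6.46, 4.95 and 4.57 CPM in GFP, and Cap2 was at 171 and 233 CPM in SRF-OE and 212, 216 and 197 CPM in GFP. Dstn, which encodes destrin, a relative of cofilin, ranged from 430 to 802 CPM and was highest in SRF-OE replicate 3, and Wdr1, a cofilin cofactor, overlapped between 284 and 347 CPM. In the 4-library fit the log2 fold change of Dstn was 0.61 (SE 0.19, adjusted p = 0.10). Both SRF-OE libraries were above GFP replicates 2 and 3 for Dstn, as for 30.8% of all genes.

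The Arp2/3 complex nucleates branched actin networks. Of its 8 genes listed, only Arpc1b rose without the library labelled GFP1. It was at 37.6 and 28.4 CPM in SRF-OE, 30.4 CPM in the library labelled GFP1 and 14.4 and 12.9 CPM in GFP replicates 2 and 3 (log2 fold change 1.28, SE 0.19, adjusted p = 0.047). Arpc1a, which encodes the alternative form of the same subunit, was at 54.1 and 60.5 CPM in SRF-OE and 55.3, 53.8 and 57.5 CPM in GFP, with a log2 fold change of 0.05 (SE 0.12). Arpc3 had 62.3 and 71.5 CPM in SRF-OE, 67.5 CPM in the library labelled GFP1 and 49.4 and 50.9 CPM in GFP replicates 2 and 3. The other 5 genes, Actr2, Actr3, Arpc2, Arpc4 and Arpc5, had log2 fold changes from -0.15 to 0.23 over the 5 libraries. With 4 libraries these ran from -0.16 for Actr2 to 0.39 (SE 0.13, adjusted p = 0.12) for Arpc5. Arpc4 and Arpc5 were then above without overlap, against 30.8% of all genes, and Actr2 below, against 30.2%. Arpc1b is abundant in blood cells, its highest value was in SRF-OE replicate 2, and 35.3% of the 50-base stretches of its transcripts also occur in transcripts of other genes, most of them of Pdap1. For Actr3 that share is 44.5%.

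None of the 6 capping and elongation genes passed in edgeR. Capzb, the beta subunit of the barbed-end capping protein CapZ that anchors thin filaments at the Z-disc, was lower in SRF-OE without overlap, at 290 and 331 CPM against 382, 369 and 417 CPM (log2 fold change -0.33, SE 0.14, adjusted p = 0.36). Capza1, its partner, was at 19.2 to 24.0 CPM, with 76.3% of its 50-base stretches shared with other transcripts. Enah, the Ena/VASP family protein Mena that sits at intercalated discs, was at 27.9 and 43.3 CPM in SRF-OE, 35.5 CPM in the library labelled GFP1 and 22.8 and 24.8 CPM in GFP replicates 2 and 3. Its relatives Vasp and Evl reached 36.5 and 17.3 CPM at most, with log2 fold changes of 0.30 (SE 0.14) and 0.28 (SE 0.19) in the 4-library fit. Both were above without overlap there, as were 30.8% of all genes. Diaph1, an actin-nucleating formin, was the least abundant of the 51 genes at 4.73 to 5.32 CPM and a mean of 1.13 RPKM.

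Ezrin, radixin and moesin link actin to the membrane, and 0 of their 3 genes passed. Ezr was at 148 and 91.9 CPM in SRF-OE, 136 CPM in the library labelled GFP1 and 229 and 200 CPM in GFP replicates 2 and 3, with a log2 fold change of -0.65 (SE 0.29, adjusted p = 0.37) and -0.83 (SE 0.23, adjusted p = 0.089). Msn was at 327 and 369 CPM in SRF-OE, 327 CPM in the library labelled GFP1 and 252 and 236 CPM in the others, with 0.36 (SE 0.17) and 0.52 (SE 0.13, adjusted p = 0.072). Rdx stayed between 114 and 126 CPM in the 5 libraries.

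All 4 genes of non-muscle myosin II had positive log2 fold changes in both fits, and 0 passed. Positive values were also found in 7334 of 13754 and 7127 of 13397 of all genes tested. Myh9 and Myh10 encode the heavy chains A and B of non-muscle myosin II. Myh9 was at 51 and 43.8 CPM in SRF-OE, 48.7 CPM in the library labelled GFP1 and 28.4 and 31.7 CPM in GFP replicates 2 and 3. Myh10 was at 51 and 60.5 CPM in SRF-OE and at 51.2, 39.2 and 44.6 CPM in GFP. Myl12a, a regulatory light chain and the second most abundant of the 51 genes at a mean of 515 RPKM, was at 792 and 1415 CPM in SRF-OE and 938, 676 and 759 CPM in GFP, with SRF-OE replicate 3 apart from the rest, and without that library its log2 fold change of 0.48 became -0.0075. Myl12b was at 37.2 CPM in SRF-OE replicate 2 and at 30.4 CPM in the library labelled GFP1 but at 19.5 CPM in SRF-OE replicate 3 and 14.1 and 13.1 CPM in GFP replicates 2 and 3, as for the endothelial markers. Both genes overlap on chromosome 17 of GRCm38 (70993656 to 71002878 and 70974119 to 71002208) and share 18.8% of the 50-base stretches of Myl12a, so their split is uncertain.

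Ratios within a library do not depend on scaling between libraries, and several RPKM ratios of paralogs differed between SRF-OE and GFP replicates 2 and 3. Tpm2 amounted to 0.00769 and 0.0185 of Tpm1 in SRF-OE, to 0.00676 in the library labelled GFP1 and to 0.00223 and 0.00331 in GFP replicates 2 and 3, and Tpm3 to 0.00356 and 0.00336, 0.00293, and 0.00116 and 0.000896 in the same order. Both ratios were higher in SRF-OE without overlap in the 5 libraries, and Tpm4 to Tpm1 only without the library labelled GFP1. Capzb to Capza1 was lower without overlap in the 5 libraries, at 23.1 and 25.8 in SRF-OE and 32.9, 28.0 and 39.5 in GFP. Of single genes, 16.1% of all were above and 17.3% below without overlap, and no such share was computed for ratios. The ratio of Arpc1b to Arpc1a was 0.711 and 0.482 in SRF-OE, 0.562 in the library labelled GFP1 and 0.274 and 0.229 in the other GFP libraries. Cfl2 was 1.44 and 1.72 times Cfl1 in SRF-OE, 1.59 times in the library labelled GFP1 and 2.68 and 2.29 times in GFP replicates 2 and 3. Pfn2 to Pfn1 was 0.0970 and 0.0603 in SRF-OE, 0.0933 in the library labelled GFP1 and 0.172 and 0.154 in the others. Flnc to Flna and Actn4 to Actn1 overlapped. These ratios are descriptions with no test. The CM marker sums above were lower in both SRF-OE libraries and the library labelled GFP1 than in GFP replicates 2 and 3. The part of other cell types in the ratios was not tested. Of the 50-base stretches of Tpm3 and Arpc1b, 40% and 35.3% also occur in transcripts of other genes, so their ratios are uncertain.

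**Figure D4:**
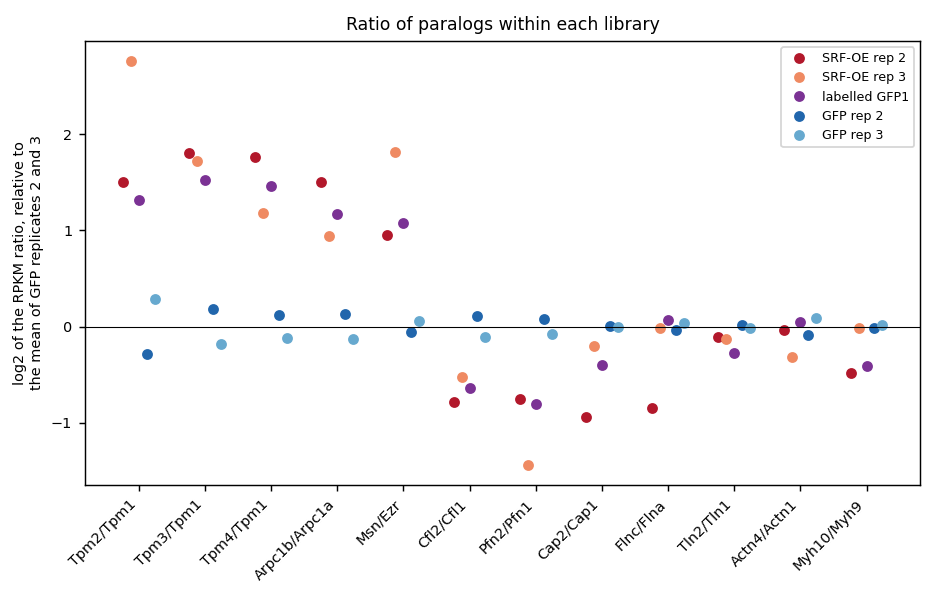
Log2 ratio of the RPKM of 2 related genes in each library (vertical axis), relative to the mean of GFP replicates 2 and 3, for 12 pairs, 1 point a library. The ratios of Tpm2, Tpm3 and Tpm4 to Tpm1, of Arpc1b to Arpc1a and of Msn to Ezr lie above 0 in both SRF-OE libraries and in the library labelled GFP1, and those of Cfl2 to Cfl1, Pfn2 to Pfn1 and Cap2 to Cap1 lie below 0.

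A list of 82 other actin and adhesion genes was measured for comparison. In edgeR 0 passed over the 5 libraries, 13 were higher and 3 lower (Ssh2, Twf2 and Myh14) at an unadjusted p under 0.05, against 6.35% and 7.59% of all genes. DESeq2 gave an adjusted p to 21 of them and called 0 higher and 1 lower (Twf2), where it called 1.02% and 19.7% of all genes given one. Without the library labelled GFP1, 9 rose and 1 fell, among the 1.98% and 0.97% of all genes that did. Csrp1, a LIM protein of smooth muscle, was at 119 and 255 CPM in SRF-OE, 103 CPM in the library labelled GFP1 and 25.7 and 24.9 CPM in GFP replicates 2 and 3 (log2 fold change 2.89, SE 0.36, adjusted p = 0.043). Adhesion adaptors among those that rose were Sorbs3, which encodes the vinculin-binding vinexin (2.13), Lims2, a partner of integrin-linked kinase (1.77), and Trip6, a relative of zyxin (0.91), beside the kinase gene Src (2.19, at 7.51 CPM or less). The others on the log2 scale were Capg, a gelsolin relative (1.99), Coro1c, a coronin (1.03), Abi1, a subunit of the WAVE complex (1.12), and Myl6, the essential light chain of non-muscle and smooth muscle myosin (1.51). Myh14, the heavy chain of non-muscle myosin IIC, fell by 0.89 on the log2 scale (SE 0.12, adjusted p = 0.047), from 109 and 114 CPM in GFP replicates 2 and 3 to 62.1 and 57.8 CPM in SRF-OE, and the library labelled GFP1 had 68.0 CPM.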

How the data were processed

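RNA-seq of sorted P14 CMs was compared between SRF-OE and GFP. Per the labels and the submitters' processing notes, the authors made SMART-Seq v4 and Nextera XT libraries, aligned single-end reads to mm10 with STAR 2.5.3a and counted reads per gene with featureCounts of Subread 1.5.2. The deposited values are raw counts without normalization. The column headed with SRF-OE replicate 1 holds another kind of deposited value, gene length in bp with 0 zeros, and was used for RPKM alone. By the headings and labels alone, a heading displaced by 1 column cannot be told apart from a column written over. Srf stood at 338 CPM in the library labelled GFP1 and at 360 CPM in SRF-OE replicate 2, and which reading holds was not tested. Strand and multi-mapping settings are not given in the sources used here, so overlapping and near-identical genes are uncertain.

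Counts were analysed in R 4.3.3 with edgeR 4.0.16 (filterByExpr, TMM, glmQLFit, glmQLFTest), with Benjamini-Hochberg adjustment over all genes tested and a cutoff of 0.05. The standard error is the log2 fold change divided by the square root of F. CPM used TMM factors of the 5 libraries. All 5 libraries with counts entered the fit, and the library labelled GFP1 was left out in a further fit. Alternatives were DESeq2 1.42.0, other scaling and filters, the replicate number as a block, and leaving out each library. The 51 genes and all lists were chosen with earlier results of these data known. Values in each library are given for members that passed, the 2 with the smallest p of each role and all paralogs named in the rule, 35 genes in all. Other members, and the CArG search, were described after values were seen. Gene positions are from GENCODE M21 and promoters from RefSeq, both GRCm38, the build called mm10, and Diaph1 and Tln2 had no promoter entry. Stretches of 50 bases were compared among GENCODE transcripts. The series description speaks of biological replicates, and p-values measure the spread between them.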

Additional observations from a re-analysis of the deposited data

How the results depend on the processing

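Over the 5 libraries edgeR called 0 of the 51 genes in either direction. The same held with size factors taken from DESeq2, with upper quartile scaling, without filtering and with a minimum of 10 counts in each library. DESeq2 itself called 1 higher and 1 lower, and 0 and 1 of the 82 other actin and adhesion genes. Leaving out 1 library gave 0 to 7 members higher and 0 lower, and 0 to 9 and 0 to 1 of the other genes; calls came solely from omitting the library labelled GFP1. Where 1 SRF-OE library was left, it was assumed to vary like the others. The replicate block, in which the library labelled GFP1 stands alone in its block and so adds nothing to the comparison, gave 13 members higher and 1 lower (Ezr), and 11 and 2 of the other genes, while 582 and 432 of all genes were called. Deviations of same-numbered libraries correlated at 0.40 for number 2 and -0.07 for number 3. With 4 libraries the correlation was 0.22 for either number. The libraries were not taken as paired, though number and sex coincide in those 4 libraries. With 4 libraries the block gave 13 and 1 members and 11 and 2 other genes, where 547 and 392 of all genes were called, and DESeq2 gave 18 and 2 members and 16 and 4 other genes. Omitting SRF-OE replicate 2 as well, a choice made after the endothelial markers were seen, gave 22 and 3 members and 22 and 7 other genes, where 1640 and 1638 of all genes were called.

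The median log2 fold change of the 51 genes ranged from 0.073 without SRF-OE replicate 3 to 0.42 without the library labelled GFP1. Among the 35 genes given in each library, 27 kept their direction in every setting run, but some came near 0: without SRF-OE replicate 3, Pfn1 was at 0.0014, Enah at 0.0018 and Fhl1 at 0.073, and without SRF-OE replicate 2, Myl12b was at 0.0167. With libraries left out, the log2 fold change ranged from -0.13 to 0.27 for Cfl2, from -0.29 to 0.18 for Cap2, from -0.0462 to 0.12 for Arpc1a, from -0.0583 to 0.0481 for Tln1, from -0.18 to 0.0470 for Tln2, from -0.24 to 0.70 for Flnc, from -0.0075 to 0.98 for Myl12a and from -0.10 to 0.91 for Tpm4. Flnc and Myl12a turned negative without SRF-OE replicate 3, and Tpm4 without SRF-OE replicate 2. Cap2 was at 0.0018 and Tln1 at 0.0281 with upper quartile scaling, and Tln1 was at 0.0035 with a minimum of 10 counts. The cause was not tested. If the headings are displaced by 1 column, the comparison of 5 libraries mixes the groups and the replicate numbers change. The block and the comparisons within a number pair the same libraries in both readings, with the library labelled GFP1 alone in either. With 2 libraries a group, adjusted p values near 0.05 are imprecise.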
